A study of Mus musculus with 9 samples.

Results

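Trimethyltin (TMT), an organotin with methyl groups on tin, was compared with sterile saline in mouse macrophages already primed with lipopolysaccharide (LPS), the outer-membrane lipid by which cells detect many bacteria. The comparison used 6 of the 9 arrays of the series, the 3 labelled as LPS with TMT and the 3 labelled as LPS alone. All cells were bone marrow derived macrophages of C57BL6 mice at day 6 in vitro, grown in medium with L929 conditioned medium until the day before use, and all received 33 ng/mL LPS for 3 h. Saline or 1.25 µM TMT hydroxide was then present for 6 h, so the saline group is itself LPS-treated and no unprimed group is described here. The remaining 3 arrays, of cells given 10 µM triethyltin (TET) bromide, entered the model only to estimate the spread of each gene. Every gene of the array with a single-gene probe set was described, 18193 in all, each by the probe set with the highest mean over the 9 arrays. The labels give 3 biological replicates per group, but no source used here says whether they came from separate mice. The p-values therefore reflect only how far these samples spread, which may be technical.

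Macrophages sense LPS through Toll-like receptor 4 and answer within hours with cytokines, chemokines, surface receptors and feedback inhibitors. Primed macrophages can then assemble the NLRP3 inflammasome, an assembly that turns on caspase-1 and, through it, interleukin-1β. The mRNA content of such cells also covers large gene families that receive less attention, among them paired immunoglobulin-like receptors, chromatin enzymes and the machinery of RNA processing.

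Values are log2 signals as deposited, a difference is the TMT mean minus the saline mean on that scale, and errors of a group are SD with n = 3. A gene is said to have risen or fallen where limma's moderated test on the 9 arrays, with Benjamini-Hochberg adjustment over 18193 genes, gave an adjusted p under 0.05. With 3 arrays on each side, 0.1 is the smallest p that an exact permutation test allows. No value marks the background of these arrays, so a fold with one group near the low end of the scale can understate the change, and signals of different probe sets are not on a common scale per molecule.

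The cells matched their label by macrophage markers. The receptor gene Csf1r stood at 14.27 ± 0.0051 in saline and 14.21 ± 0.021 under TMT, the lysozyme gene Lyz2 at 14.20 and 14.12, and Adgre1, encoding F4/80, at 12.89 and 12.89, and none of the 3 passed the test. Csf1r did pass when its probe sets were averaged (adjusted p = 0.040 in limma's test). Over all genes tested, 14.3% rose and 13.4% fell. Of 8 measured macrophage markers 2 rose (Itgam, from 9.25 to 10.13, and Fcgr1, from 13.17 to 13.82) and 2 fell (Cd14, from 13.84 to 13.50, and Mertk, from 9.45 to 8.70). Cd14 did not pass without saline replicate 1 or 3 or TMT replicate 1 or 2 (adjusted p up to 0.073 in limma's test). Of 9 neutrophil markers 4 fell and 0 rose: S100a9 went from 10.86 to 9.16, Ngp from 7.73 to 6.32, Ltf from 6.04 to 5.55 and Mpo from 5.95 to 5.35, while Elane stayed at 4.91 and 4.97. Mpo did not pass without saline replicate 2 (adjusted p = 0.055 in limma's test), and 1 neutrophil marker rose without TMT replicate 3. The mean over these 9 markers was 6.91 to 7.03 in the saline arrays and 6.50 to 6.69 in the TMT arrays, and its part in the results was not tested. Of the B cell, T and NK cell, erythroid, mast cell, stromal, megakaryocyte, endothelial and dendritic cell markers, 44 measured in all, 6 passed, with 3 to 4 when saline replicate 2 or 3 or TMT replicate 1 or 3 was left out. Of all genes 27.8% passed, and of genes with a mean signal below the median 9.33%. With the 6 arrays alone 9 of the 44 passed (6075 of all genes), and with weighted arrays 19 (8756 of all genes). Among these 44 markers Pf4 (12.998 in saline), Pdgfrb (9.81), Itgax (9.47) and Kdr (8.76) were bright, and of these 4 only Itgax passed, falling to 8.56. Kdr passed when TMT replicate 2 was left out or the arrays were weighted. Pdgfrb passed with weighted arrays or with the 6 arrays alone. In bulk RNA of this kind, fewer cells of a type and less RNA per cell cannot be told apart.

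The arrays of a group were close to each other. The SD of the difference between 2 arrays over all genes was 0.176 to 0.195 among saline arrays, 0.171 to 0.298 among TMT arrays and 0.585 to 0.625 between saline and TMT. TMT replicate 2 stood farthest from its group. The test called 5049 genes changed (27.8% of all tested), of which 2608 rose (14.3%) and 2441 fell (13.4%). Changes of at least 2-fold were 693 rises (3.81%) and 736 falls (4.05%). Without adjustment, 6501 genes had a p under 0.05. For 8129 genes (44.7%) the ranges of the 2 groups were separate.

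Calls were concentrated among bright genes. Of the 9097 genes with a mean signal at or above the median (6.82), 46.2% were called, against 9.33% of the 9096 below it. By deciles of brightness, the share called rose from 1.48% in the dimmest to 49.3% in the eighth and ninth and was 44.5% in the brightest. The genes described first are therefore the 8561 whose means were at or above that median in both groups, of which 2011 rose and 1836 fell. The median difference was 0.032 over these genes and 0.012 over all genes.

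**Figure D1:**
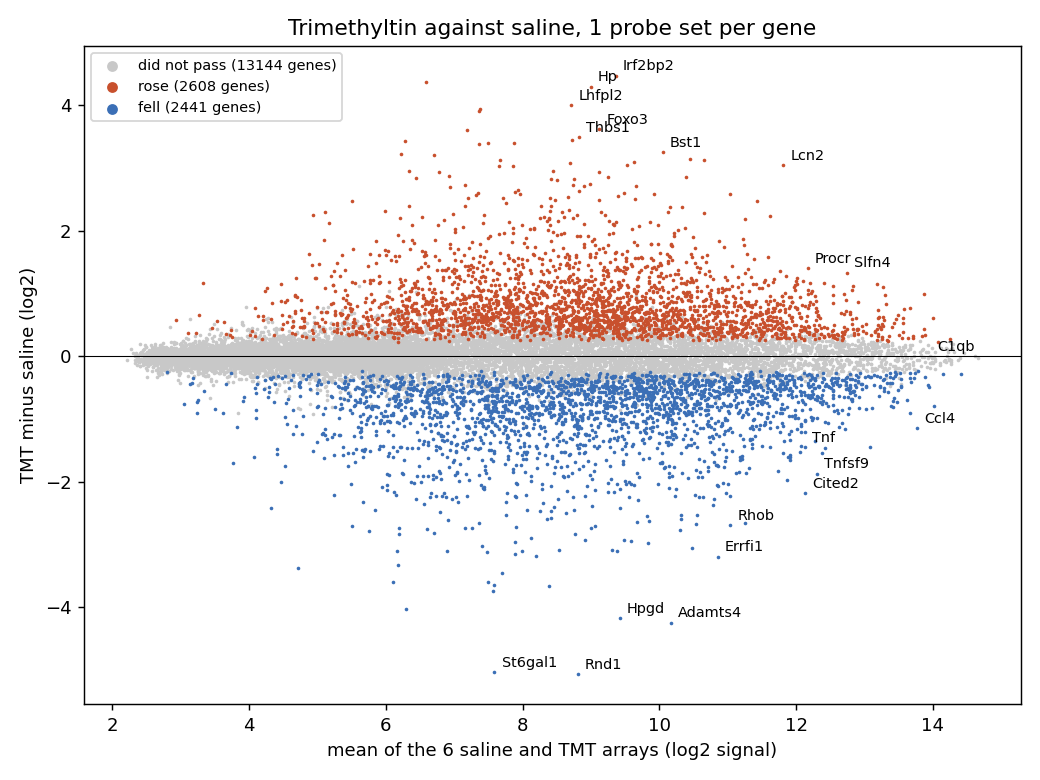
Difference between TMT and saline (log2, vertical axis) against the mean log2 signal of the 6 arrays (horizontal axis) for 18193 genes, 1 point per gene. The 2608 genes that rose are red, the 2441 that fell are blue and the others are grey. Large falls such as Adamts4 (−4.24) and Rnd1 (−5.07) and large rises such as Irf2bp2 (4.47) and Lcn2 (3.05) sit at middle to high brightness, and differences shrink toward the bright end.

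The largest falls among genes bright in both groups were in enzymes and signalling inhibitors. Adamts4, encoding a secreted protease that cuts the matrix proteoglycan aggrecan, read 12.33, 12.29 and 12.26 in saline and 8.03, 8.40 and 7.71 under TMT, a 19.0-fold fall (−4.24, SE 0.15, adjusted p = 7.4e-08). Hpgd, whose product inactivates prostaglandins, read 11.38, 11.56 and 11.57 in saline and 7.56, 7.53 and 6.92 under TMT (18.0-fold; −4.17, SE 0.16, adjusted p = 1.2e-07). In both genes the saline arrays agreed within a narrow band while the TMT arrays were spread more widely, and the groups lay far apart. Errfi1, an inhibitor of the epidermal growth factor receptor kinase, read 12.47, 12.41 and 12.47 in saline and 9.23, 9.29 and 9.25 under TMT (9.15-fold; −3.19, SE 0.20, adjusted p = 1.6e-06). Cish, a feedback inhibitor of cytokine receptor signalling, read 10.97, 10.92 and 10.92 and 7.71, 7.90 and 7.88 (8.63-fold; −3.11, SE 0.16, adjusted p = 5.1e-07). Errfi1 and Cish were tight in both groups, with no TMT array near a saline array. The SE of Errfi1 also takes in its TET arrays, whose SD was 0.50. Beside Cish, the transcription factor genes Stat5a and Stat5b fell from 12.86 to 10.88 and from 10.14 to 8.83.

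The next falls included membrane, cytoskeletal and nuclear proteins. Olr1, the receptor for oxidised low-density lipoprotein, read 10.68, 10.98 and 10.90 in saline and 7.72, 8.17 and 7.40 under TMT (8.53-fold; −3.09, SE 0.20, adjusted p = 2.4e-06). Lmna, encoding the nuclear lamins A and C, read 11.67, 11.73 and 11.65 in saline and 8.77, 9.24 and 8.73 under TMT (6.83-fold; −2.77, SE 0.16, adjusted p = 9.4e-07). TMT replicate 2 was the highest TMT array in both genes and still lay below every saline array. Swap70, a protein that binds membrane phosphoinositides and acts on RAC, was bright in saline (12.60, 12.51 and 12.64) and lower under TMT (9.95, 10.03 and 9.81), a difference of −2.65 (SE 0.10). Further members of the 20 largest falls were Asap1 (from 10.95 to 8.02), a regulator of ARF GTPases, Fchsd2 (10.99 to 8.35), a membrane-bending F-BAR protein, Ppfibp1 (11.87 to 9.20), a liprin, Prkd3 (10.19 to 7.35), a protein kinase D, and Maml2 (10.37 to 7.44), a coactivator of Notch. The zinc transporter gene Slc30a4 went from 11.17 to 8.53, the lipid transporter family member Abca9 from 10.37 to 7.64, the zinc finger factor Plagl1 from 10.41 to 7.70 and Mmd from 11.05 to 8.11. Fam107b (from 11.32 to 8.35) and the clone-named gene 3110009E18Rik (10.08 to 6.99) completed the 20 together with Rnd3 and Rhob. Rnd3 read 12.21, 11.84 and 11.97 in saline and 9.02, 9.01 and 8.84 under TMT (8.29-fold; −3.05, SE 0.12, adjusted p = 1.2e-07), and Rhob read 12.43, 12.30 and 12.41 and 9.85, 9.56 and 9.68 (6.45-fold; −2.69, SE 0.094, adjusted p = 7.8e-08). In all 20 genes the groups did not overlap.

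The largest rises among bright genes were in secreted proteins, nuclear regulators and surface receptors. Irf2bp2, encoding a corepressor that binds interferon regulatory factor 2, read 7.001, 7.53 and 6.84 in saline and 11.62, 11.45 and 11.73 under TMT, a 22.2-fold rise (4.47, SE 0.22, adjusted p = 4e-07). Hp, encoding haptoglobin, which binds free haemoglobin, read 6.72, 6.95 and 6.87 and 11.11, 11.15 and 11.18 (19.7-fold; 4.30, SE 0.15, adjusted p = 6.5e-08). Saline replicate 2 was the highest saline array in both genes, and every TMT array lay far above it. Lcn2, encoding the siderophore-binding protein lipocalin 2, began bright (10.19, 10.39 and 10.29) and reached 13.41, 13.17 and 13.43 (8.26-fold; 3.05, SE 0.098, adjusted p = 6.2e-08). Thbs1, encoding the secreted matrix protein thrombospondin 1, read 7.12, 7.15 and 6.94 in saline and 10.89, 10.19 and 10.62 under TMT (11.3-fold; 3.50, SE 0.18, adjusted p = 5e-07). TMT replicate 2 was the lowest TMT array in Lcn2 and in Thbs1, and no TMT array reached the saline range.

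Nuclear regulators and enzymes followed. Foxo3, a forkhead transcription factor, read 7.12, 7.53 and 7.29 in saline and 10.78, 11.02 and 10.996 under TMT (3.62, SE 0.12, adjusted p = 6.2e-08). Mnt, a repressor that pairs with MAX, read 7.82, 7.91 and 7.75 and 10.74, 10.65 and 10.65 (2.85, SE 0.095, adjusted p = 6.5e-08). Egln3, an oxygen-dependent prolyl hydroxylase that acts on hypoxia-inducible factors, read 6.68, 7.30 and 6.99 and 10.33, 10.48 and 10.53 (3.46, SE 0.31, adjusted p = 1.6e-05). Mnt was tight in both groups, whereas the saline arrays of Egln3 were spread more widely, and neither gene's groups overlapped. The SE of Egln3 also takes in its TET arrays, whose SD was 0.74. Hilpda, a small protein that coats lipid droplets, rose from 6.97 to 9.93, and Plpp1, a phosphatase of phosphatidic acid, from 7.60 to 10.36. Fnip2, a partner of folliculin, rose from 8.08 to 11.19, Adgb, encoding androglobin, from 7.64 to 10.58, Lrrc75a from 8.004 to 11.05, Tbl2 from 7.003 to 9.83 and AI467606 from 8.96 to 11.81.

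Surface receptors made up the rest of the 20 largest rises. Bst1, a membrane ADP-ribosyl cyclase, read 8.34, 8.54 and 8.38 in saline and 11.75, 11.51 and 11.77 under TMT (9.56-fold; 3.26, SE 0.098, adjusted p = 5.3e-08). Slamf1, a receptor that binds itself on neighbouring cells, read 8.68, 9.12 and 8.82 and 12.10, 12.11 and 11.86 (3.15, SE 0.14, adjusted p = 2.2e-07). Gpr31b, a G-protein-coupled receptor, read 9.07, 9.08 and 9.10 and 12.18, 12.21 and 12.26 (3.13, SE 0.096, adjusted p = 5.3e-08). Gpr31b had the smallest spread of the 3 in both groups, and no groups overlapped. Siglece, an inhibitory receptor for sialic acid, rose from 7.15 to 10.23, Cd300lb, an activating receptor, from 7.34 to 10.16, and Marco, a scavenger receptor for bacteria and particles, from 7.11, 7.16 and 7.03 in the single saline arrays to 9.79, 9.98 and 9.96 in the TMT arrays. In all 20 rises the TMT arrays lay above the saline arrays.

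**Figure D2:**
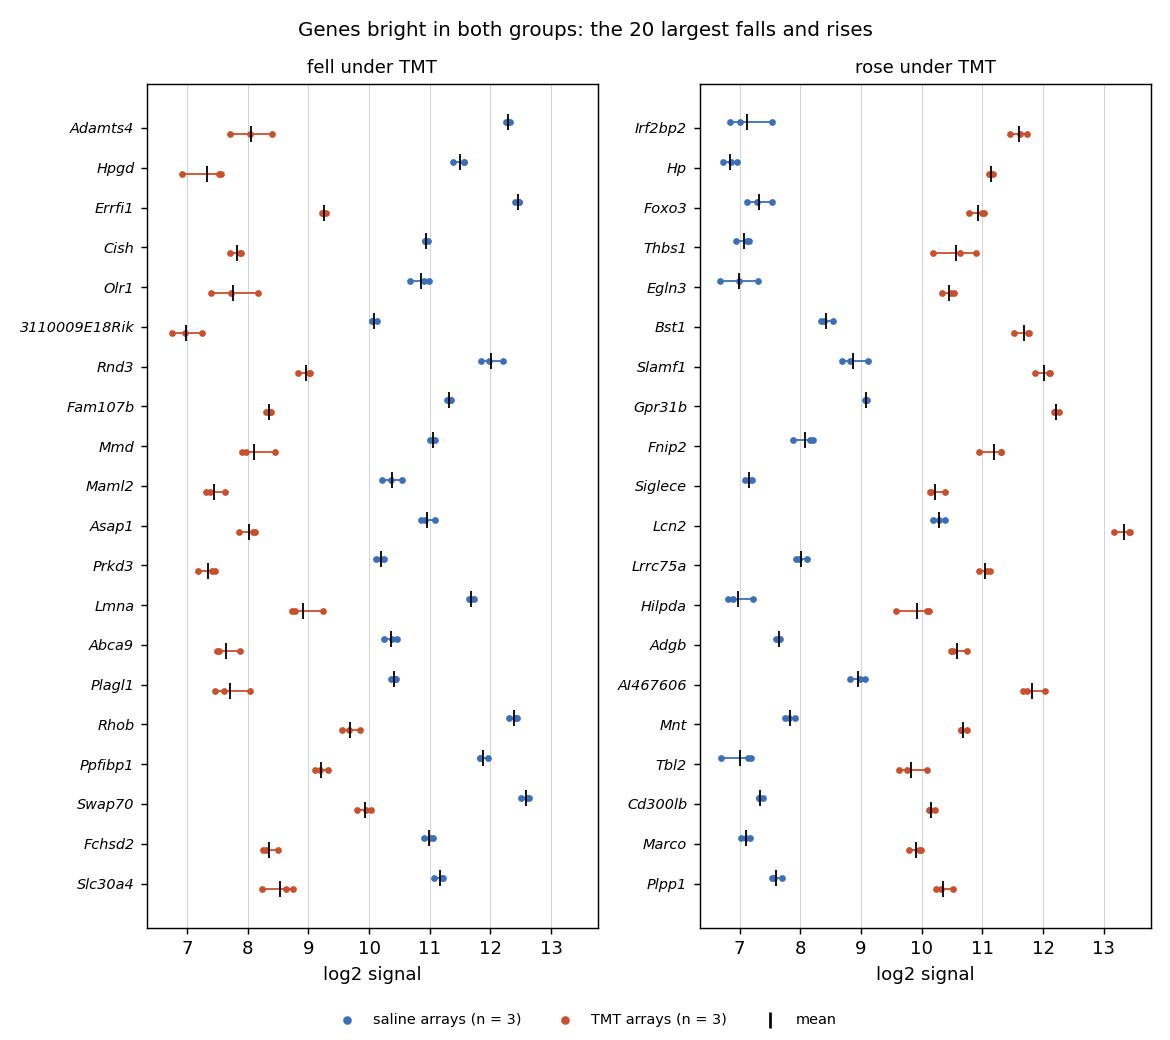
Log2 signal of each of the 3 saline arrays (blue) and 3 TMT arrays (red) for the 20 largest falls (left) and 20 largest rises (right) among genes at or above the median brightness in both groups, with group means as black ticks. The groups are separated in every gene, for example Adamts4 from 12.29 to 8.05 and Irf2bp2 from 7.13 to 11.60.

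The bases upstream of 4 genes give examples of short motifs of LPS-linked factors. The genes and their motifs were picked by hand, so that each holds a match is not a result. NF-κB and CREB are transcription factors active in LPS-treated macrophages, and the letters searched were GGG, then any pair of bases, then TTTCC for NF-κB and TGACGT for CREB. The 250 bases that end just before the annotated start are given 5′ to 3′ on the gene's strand, from RefSeq on GRCm38.p6, with matches on either strand in capitals. Marco, which rose, is on the minus strand (chr1:120505025-120505274), and Cxcl1, which fell, is on the plus strand (chr5:90890995-90891244). Egln3, which rose, is on the minus strand (chr12:54203875-54204124), and Nr4a3, which fell, is on the plus strand (chr4:48045055-48045304). Capitals mark NF-κB matches in the first pair and CREB letters in the second pair.
Marco: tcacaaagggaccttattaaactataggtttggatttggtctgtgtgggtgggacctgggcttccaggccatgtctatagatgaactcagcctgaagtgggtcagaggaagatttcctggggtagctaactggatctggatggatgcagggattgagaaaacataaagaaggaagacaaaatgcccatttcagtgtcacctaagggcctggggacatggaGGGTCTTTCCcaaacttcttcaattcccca
Cxcl1: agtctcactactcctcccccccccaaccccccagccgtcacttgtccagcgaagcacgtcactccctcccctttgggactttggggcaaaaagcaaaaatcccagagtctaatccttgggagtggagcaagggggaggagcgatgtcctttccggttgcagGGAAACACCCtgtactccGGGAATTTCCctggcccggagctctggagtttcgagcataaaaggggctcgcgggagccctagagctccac
Egln3: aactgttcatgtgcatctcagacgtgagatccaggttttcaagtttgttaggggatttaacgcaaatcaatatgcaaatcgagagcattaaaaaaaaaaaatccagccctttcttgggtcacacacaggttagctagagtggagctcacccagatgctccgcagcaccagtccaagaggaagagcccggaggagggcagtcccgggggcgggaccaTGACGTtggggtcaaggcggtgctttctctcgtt
Nr4a3: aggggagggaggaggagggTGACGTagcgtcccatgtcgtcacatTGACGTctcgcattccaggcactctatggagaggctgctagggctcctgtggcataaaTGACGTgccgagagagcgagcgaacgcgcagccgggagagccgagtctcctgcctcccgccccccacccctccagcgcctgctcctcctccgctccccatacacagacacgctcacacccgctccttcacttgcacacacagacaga
Marco held 1 match and Cxcl1 held 2, while Egln3 held 1 and Nr4a3 held 3. The share of windows with each motif was then counted over the 250 bases before each annotated start. Of the 493 bright genes that rose at least 2-fold 413 had a window, and of the 488 that fell at least 2-fold 400 did. The NF-κB letters occurred in 1.42% of windows of the rises and 1.91% of the falls, against 1.55% of all bright genes. The CREB letters occurred in 7.80% of the rises and 8.59% of the falls, against 10.6%. For the 20 largest bright rises and the 20 largest bright falls, NF-κB letters stood in 2 of 16 and 0 of 22 windows. CREB letters stood in 1 of 16 and 2 of 22. The hypoxia core ACGTG stood in 24.3% of the rises and 19.7% of the falls (22.6% of all bright genes), and it overlaps the E-box CACGTG, found in 9.57% and 10.1% (8.80%). The AP-1 motif TGANTCA was in 6.74% and 5.73% (4.25%). A match describes letters only, and none of these shares was tested.

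A small set of genes moved between a bright level in one group and a level below the median of genes in the other. The bright level had to reach the upper quartile of genes (9.29), and 12 falls and 5 rises met this. Rnd1 read 11.08, 11.42 and 11.53 in saline and 5.95, 6.34 and 6.53 under TMT (33.6-fold; −5.07, SE 0.22, adjusted p = 2.2e-07). St6gal1, a sialyltransferase of the Golgi, read 9.95, 10.32 and 10.04 and 5.04, 5.10 and 5.07 (32.8-fold; −5.03, SE 0.18, adjusted p = 7.8e-08). The TMT arrays of St6gal1 were nearly identical, whereas Rnd1 varied more in both groups, and neither gene's groups overlapped. Il23a, the p19 subunit of interleukin-23, read 9.48, 9.33 and 9.51 in saline and 5.40, 6.07 and 5.62 under TMT. Nr4a3, an orphan nuclear receptor, read 10.12, 10.30 and 10.24 and 6.62, 7.02 and 6.06. TMT replicate 2 was the highest TMT array in both genes, and the groups stayed far apart. Syne3, which links nuclei to the cytoskeleton, fell from 9.40 to 5.75, Tnfsf4, encoding OX40 ligand, from 9.29 to 5.70, and Ank, a membrane protein of pyrophosphate export, from 9.47 to 6.32. Akap2 fell from 9.43 to 5.98, Phldb1 from 9.78 to 6.60 and A630072M18Rik from 9.55 to 6.44.

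In the other direction, Lhfpl2 read 6.64, 6.77 and 6.71 in saline and 10.71 in each TMT array (16.1-fold; 4.01, SE 0.11, adjusted p = 3.5e-08). Tmem86a, a lysoplasmalogen hydrolase, read 4.95, 5.59 and 5.65 and 9.35, 9.21 and 9.48 (15.5-fold; 3.95, SE 0.20, adjusted p = 4.2e-07). Gpr35, a G-protein-coupled receptor, read 5.93, 5.99 and 6.61 and 9.57, 9.72 and 9.43 (10.6-fold; 3.40, SE 0.18, adjusted p = 5.7e-07). Tmem86a and Gpr35 each had 1 saline array apart from the other saline arrays, and their groups did not overlap. Trib3, a pseudokinase induced by stress of protein synthesis, rose from 6.35 to 9.38, and C130050O18Rik from 5.41 to 9.32.

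Among the brightest 5% of genes (910 genes, mean of the 6 arrays from 12.07), most changes were small. In this set 156 rose and 200 fell, and only 14 rises and 19 falls reached 2-fold. The share called was 39.1%, against 27.8% of all genes and 44.9% of genes bright in both groups. Cited2, a transcriptional coregulator that competes for CBP and p300, read 13.24, 13.19 and 13.23 in saline and 11.08, 11.11 and 10.94 under TMT (4.53-fold; −2.18, SE 0.086, adjusted p = 1.2e-07). Tnfsf9, encoding 4-1BB ligand, read 13.24, 13.28 and 13.20 and 11.46, 11.38 and 11.27 (3.65-fold; −1.87, SE 0.092, adjusted p = 4.2e-07). Lipa, the acid lipase of lysosomes, read 13.17, 13.17 and 13.12 and 11.66, 11.49 and 11.66 (2.92-fold; −1.55, SE 0.092, adjusted p = 1.2e-06). In these genes the arrays of a group stood close together, and the falls were far larger than the spread. The chemokine genes Cxcl1 and Ccl4 went from 13.80 to 12.35 and from 14.34 to 13.20, and the cytokine gene Tnf from 12.86 to 11.41. Regulators of the same brightness fell with them, namely the ETS repressor Etv3 (13.16 to 11.70), the C/EBP factor Cebpd (12.73 to 11.52), the nuclear IκB protein Nfkbiz (13.29 to 12.13) and the ADP-ribosyltransferase Tiparp (12.68 to 11.48). The hyaluronan receptor gene Cd44 went from 12.95 to 11.61 and Glipr1 from 13.18 to 12.06.

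The rises of this brightness were led by Procr, the endothelial protein C receptor, which read 11.38, 11.54 and 11.47 in saline and 12.89, 12.90 and 12.82 under TMT (2.65-fold; 1.40, SE 0.083, adjusted p = 1.1e-06). Slfn4, a myeloid schlafen gene, read 12.06, 12.05 and 12.12 and 13.43, 13.29 and 13.50 (2.52-fold; 1.33, SE 0.097, adjusted p = 4.5e-06). Il1rn, encoding the interleukin-1 receptor antagonist, read 12.73, 12.73 and 12.71 and 13.93, 13.60 and 13.94 (2.15-fold; 1.10, SE 0.11, adjusted p = 2.8e-05). TMT replicate 2 was the lowest TMT array in Slfn4 and Il1rn but not in Procr, and in none did it come near saline. The shared receptor chain gene Csf2rb rose from 11.50 to 12.70, the membrane proteins Ms4a4c and Ms4a6b from 12.60 to 13.75 and from 12.28 to 13.40, and the interferon-induced gene Ifit1bl1 from 11.98 to 13.09. Glrx, encoding glutaredoxin, rose from 12.29 to 13.35, and the lysosomal phosphatase gene Acp2 from 11.65 to 12.70. Coro7 (11.61 to 12.78), a coronin of the Golgi, Snx18 (11.71 to 12.76), a sorting nexin, and Cp (11.82 to 12.99), encoding the copper oxidase ceruloplasmin, completed the 12.

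**Figure D3:**
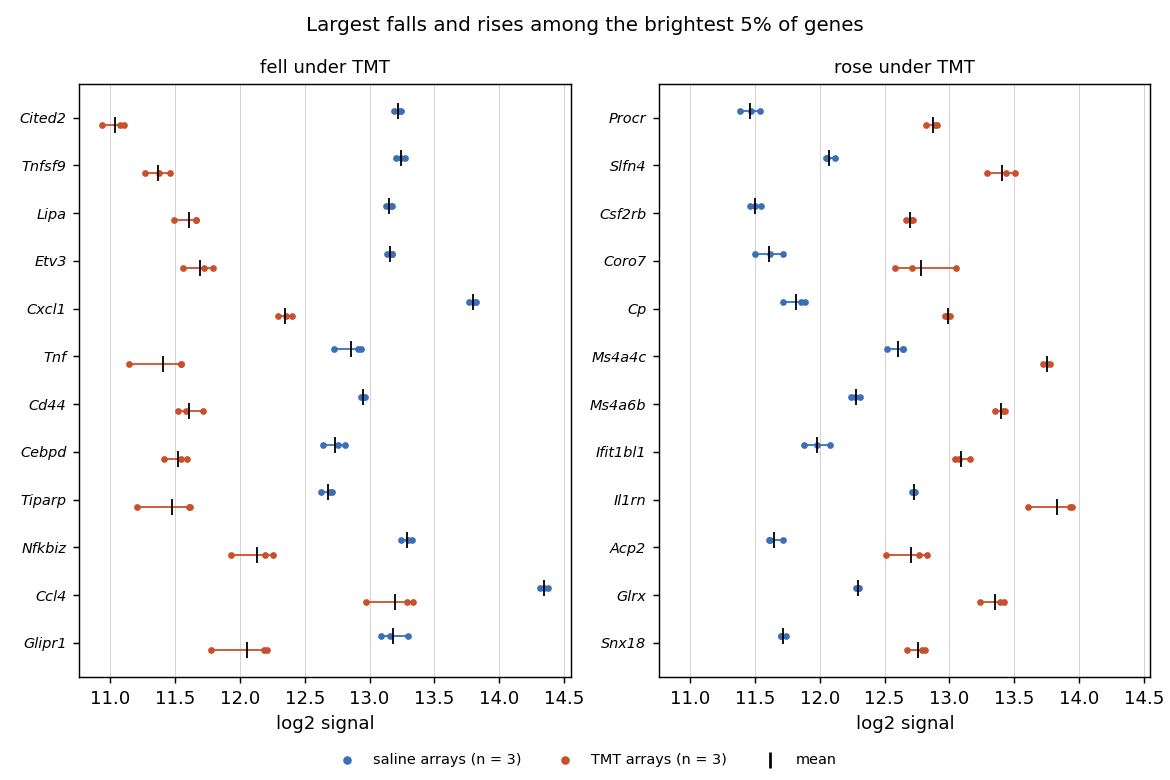
Log2 signal of the 3 saline arrays (blue) and 3 TMT arrays (red) for the 12 largest falls (left) and 12 largest rises (right) among the brightest 5% of genes, with group means as black ticks. All differences lie between −2.18 (Cited2) and 1.40 (Procr), and the arrays of a group lie close together.

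The remaining genes are described by family. Counts are read against the 14.3% of all genes that rose and the 13.4% that fell, and medians against 0.012. Most members of these families are bright, and among genes bright in both groups 23.5% rose and 21.4% fell.

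**Figure D4:**
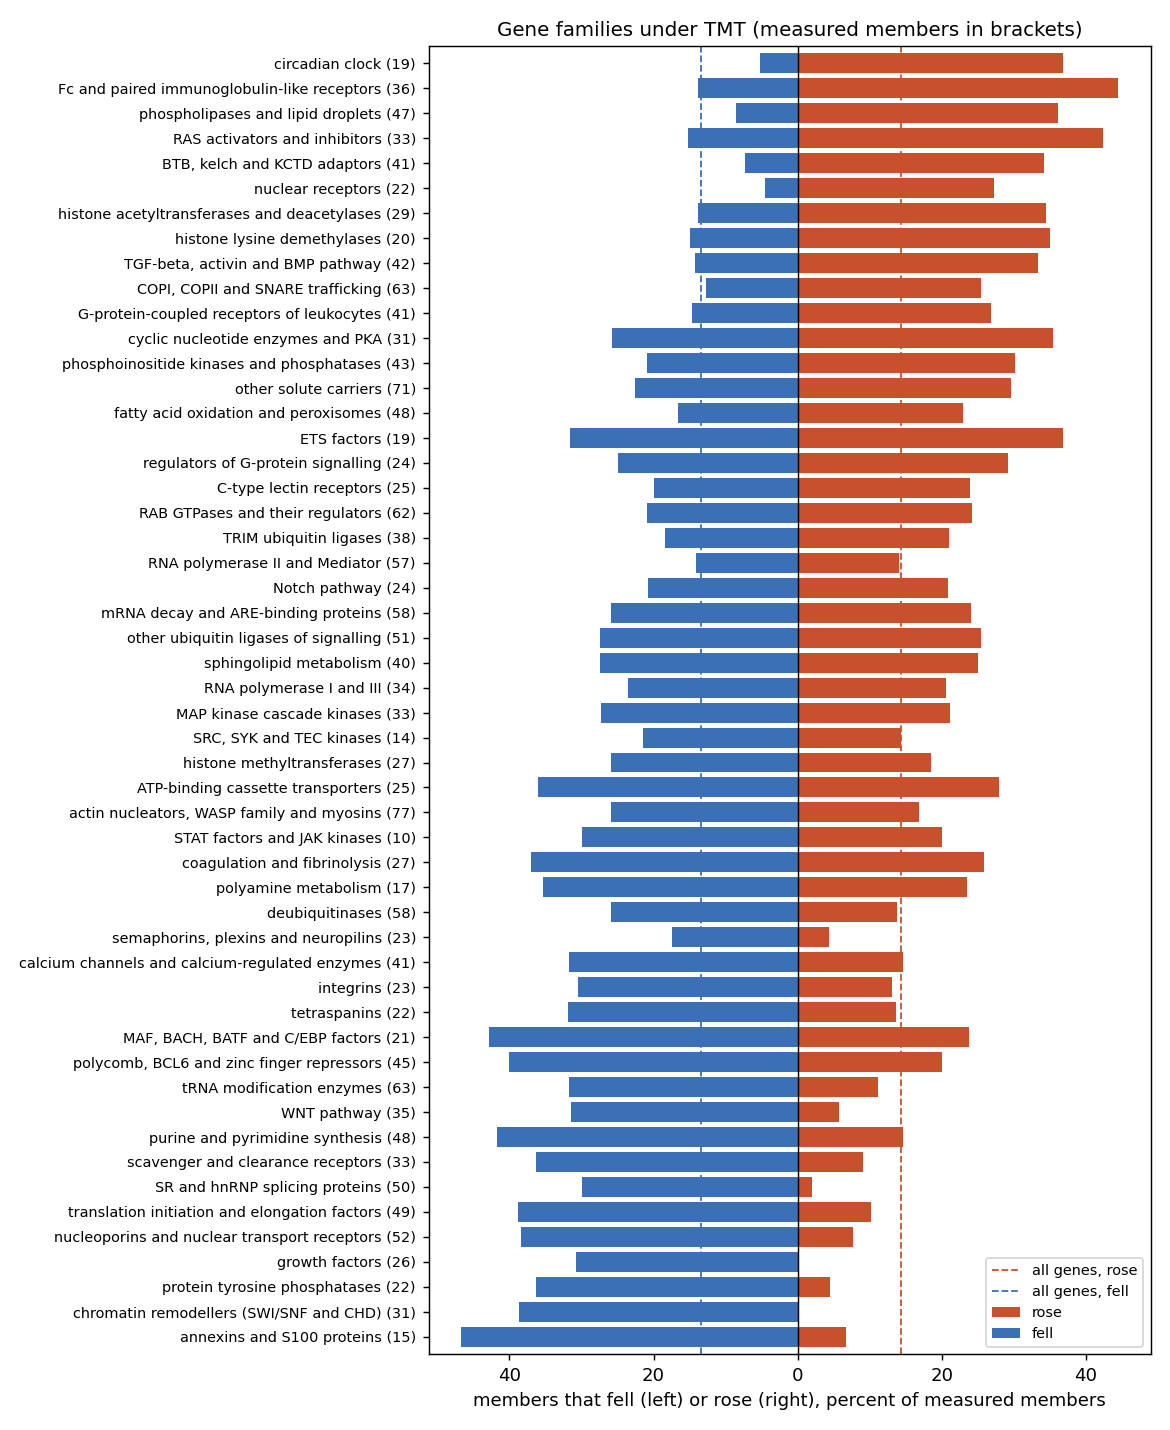
Share of the measured members of 52 gene families that fell (blue, left of 0) or rose (red, right of 0) under TMT, in percent, ordered by the difference of the shares; dashed lines mark the shares over all genes (13.4% fell, 14.3% rose). The clock genes, the paired immunoglobulin-like receptors and the phospholipases stand at the top, with many rises and few falls, and the annexins, chromatin remodellers and tyrosine phosphatases at the bottom.

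Of 77 genes of actin nucleation, WASP proteins and myosins 20 fell and 13 rose, with a median of 0.075, and 13 fell without saline replicate 1 or without saline replicate 3. Actin-bundling and motor genes such as Myo1g (from 12.03 to 10.39), Tpm1 (11.13 to 9.71), Actn1 (11.95 to 10.79) and the severing protein gene Gsn (13.08 to 12.43) fell. Evl (from 11.21 to 12.49), Wipf1 (10.33 to 11.60) and Coro1c (11.90 to 12.67) rose. The genes listed as activators and inhibitors of RAS, which include regulators of RAS-like GTPases, had 14 rises and 5 falls in 33 (median 0.21). Rasgrp1 rose from 8.27 to 9.98, Sipa1 from 8.31 to 9.68, Rgl2 from 8.78 to 10.15 and Sos2 from 8.59 to 9.76, while Rasgrp3 fell from 7.84 to 4.52 and Rasgef1b from 11.87 to 9.82. Rasgrp1 and Rasgrp3, both exchange factors for RAS-like GTPases, therefore changed in opposite directions. RAB GTPases and their regulators, which direct vesicles, were balanced at 15 risen and 13 fallen of 62, with Rab31 (from 11.42 to 12.52) and Rab3a (5.58 to 8.28) among the rises and Tbc1d1 (10.40 to 8.37) and Rin3 (10.27 to 8.31) among the falls. The coat and SNARE proteins of membrane traffic had 16 rises and 8 falls in 63, with 5 falls without saline replicate 2 or 3 or TMT replicate 1 or 3.

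Fc receptors bind antibody-coated particles, and the paired immunoglobulin-like receptors pass activating or inhibitory signals in myeloid cells. Of 36 measured 16 rose and 5 fell, and the median was 0.26. Trem1, an amplifier of inflammatory signals, read 4.99, 5.27 and 5.03 in saline and 8.33, 8.47 and 8.11 under TMT (9.23-fold; 3.21, SE 0.12, adjusted p = 1.2e-07). Slamf8 read 9.26, 9.31 and 9.12 and 11.20, 11.11 and 11.27 (1.96, SE 0.098, adjusted p = 4.2e-07), and Cd300lf, an inhibitory receptor, 7.83, 8.06 and 8.11 and 9.78, 10.29 and 9.29 (1.79, SE 0.25, adjusted p = 0.00039). Trem1 was dim in saline and of average brightness under TMT, and all 3 genes had separate groups. The antibody receptors themselves moved little from high levels: Fcgr4 rose from 13.20 to 13.96, Fcgr1 from 13.17 to 13.82, Fcgr3 from 13.03 to 13.36 and the inhibitory Fcgr2b from 13.37 to 13.75. With 1 array left out, Fcgr3 passed only without TMT replicate 2 (adjusted p up to 0.13 in limma's test). Pirb (from 11.94 to 12.66), Pilra (10.05 to 11.41), Sirpb1a (9.38 to 10.87), Treml2 (7.22 to 8.77) and Trem3 (3.95 to 6.26) also rose. In contrast to Trem1 and Trem3, Trem2, a lipid-sensing receptor, read 12.06, 11.82 and 11.96 in saline and fell to 10.69, 10.12 and 10.75 (−1.42, SE 0.18, adjusted p = 0.00015). Fcgrt, the neonatal Fc receptor, fell from 8.91 to 7.97.

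Of 33 genes listed under scavenger and clearance receptors, not all of them receptors, 12 fell, 3 rose and 18 did not pass. Beside Olr1, Sort1 (sortilin) fell from 8.47 to 6.54, the collectin receptor Colec12 from 8.08 to 6.61, Elmo1, an adaptor of engulfment, from 11.12 to 9.80, and the fatty acid receptor Cd36 from 12.88 to 12.42. Gas6, a bridging protein between dying cells and the receptor Mertk, read 10.79, 10.57 and 10.65 in saline and 8.96, 8.40 and 8.87 under TMT (3.80-fold; −1.93, SE 0.15, adjusted p = 5.8e-06). Marco was the only one of the 3 rises that reached 2-fold. The others were Jmjd6 (from 10.19 to 10.92), counted also with the histone lysine demethylases, and Timd4 (4.84 to 5.39). Timd4 did not pass without TMT replicate 3 or any 1 saline array. The C-type lectins split into 6 rises and 5 falls of 25: Klra2 (from 7.40 to 9.93), Ly75 (5.20 to 6.87) and Clec4a3 (10.03 to 11.07) rose, and Clec10a (7.58 to 5.31), Clec4b1 (8.01 to 5.76) and the β-glucan receptor Clec7a (10.91 to 10.03) fell. Leukocyte G-protein-coupled receptors had 11 rises and 6 falls in 41. Beside Gpr35, the lysophospholipid receptor Lpar6 rose from 7.16 to 9.36, the proton sensor Gpr65 from 9.04 to 10.38 and the formyl peptide receptor Fpr2 from 12.89 to 13.73, whereas Adgrl2 fell from 11.30 to 9.19, Gpr132 from 10.26 to 8.24 and the oxysterol receptor Gpr183 from 8.76 to 6.97.

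Integrins and tetraspanins organise adhesion at the cell surface. Among 23 integrins 7 fell, including Itgav (from 13.79 to 12.99) and its partner Itgb5 (11.89 to 11.17), and 3 rose, including the β2 integrin chains Itgal (11.52 to 12.31) and Itgam (9.25 to 10.13), with 5 rises without TMT replicate 2. Among 22 tetraspanins 7 fell and 3 rose (1 without saline replicate 1 or 3 or TMT replicate 1 or 2): Tspan33 went from 9.65 to 7.19, Cd9 from 12.08 to 10.99 and Cd81 from 13.03 to 12.53, while Tspan14 went from 8.24 to 9.89. Of 23 semaphorins, plexins and neuropilins 4 fell, led by Plxnc1 (from 10.68 to 8.43) and Nrp1 (10.78 to 9.42), and only Sema4b rose (6.24 to 7.78).

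Splicing proteins of the SR and hnRNP classes, which choose the exons kept in an mRNA, had 15 falls and 1 rise in 50, with 34 not passed (median −0.15). Tra2a read 12.14, 12.26 and 12.25 in saline and 10.73, 10.97 and 10.68 under TMT (−1.43, SE 0.097, adjusted p = 3e-06), and its paralogue Tra2b 11.85, 11.74 and 11.82 and 10.59, 10.57 and 10.51 (−1.25, SE 0.090, adjusted p = 4.4e-06). Hnrnpll fell from 11.51 to 10.23, Srsf5 from 10.88 to 10.13 and Srsf3 from 12.69 to 12.07, and the one rise was Clk4 (from 9.27 to 9.90), a kinase of SR proteins. For nucleoporins and nuclear transport receptors the counts were 20 falls and 4 rises in 52 (median −0.27). Kpna3, an importin α, read 12.78, 12.69 and 12.73 in saline and 11.20, 11.03 and 11.01 under TMT (3.16-fold; −1.66, SE 0.098, adjusted p = 1.1e-06). The falls covered pore proteins (Nup54, from 10.05 to 8.72, Nup160, 8.56 to 7.64, and Ranbp2, 12.01 to 11.38), import receptors (Ipo5, 11.34 to 10.56) and the mRNA exporter Nxf1 (12.06 to 11.38). Of the 4 rises, which numbered 2 without saline replicate 1 or 3, 3 were exportins: Xpo1, the main protein exporter, rose from 9.41 to 10.50, Xpo7 from 9.99 to 10.93 and the tRNA exporter Xpot from 11.24 to 11.94. Xpo7 did not pass without saline replicate 1 or 3 or TMT replicate 2.

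Translation factors showed 19 falls and 5 rises in 49 (median −0.25), with 12 falls without saline replicate 1 or without saline replicate 3. The falls included 6 subunits of initiation factor 3, among them Eif3e (from 12.86 to 12.39), Eif3f (12.43 to 11.95) and Eif3a (12.39 to 12.06). Eef2, the elongation factor that moves the ribosome along, fell from 13.02 to 12.38, and Eef2k, the kinase that inhibits it, read 8.94, 9.13 and 8.67 in saline and 6.44, 6.88 and 6.48 under TMT (4.98-fold; −2.32, SE 0.22, adjusted p = 2.8e-05). Eef2 did not pass without saline replicate 1 or 3, nor Eif3a without saline replicate 1 or 3 or TMT replicate 1 or 2. The release factor gene Gspt1 went from 11.46 to 10.35 and Eef1e1 from 10.41 to 9.19. Both listed genes for inhibitors that bind the cap-binding initiation factor rose. Eif4ebp1 read 10.72, 10.74 and 10.68 in saline and 11.97, 11.92 and 12.04 under TMT (1.27, SE 0.083, adjusted p = 2.4e-06), and Eif4ebp2 went from 8.67 to 9.75. Among 63 tRNA modification enzymes 20 fell (13 without TMT replicate 1) and 7 rose: the pseudouridine synthase gene Pus7 went from 8.43 to 6.37 and the methyltransferase gene Nsun2 from 10.46 to 9.35, whereas Trub2 went from 9.51 to 10.81 and Nsun6 from 6.23 to 7.45.

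Factors of mRNA decay were balanced, with 14 rises and 15 falls in 58. The AU-rich element binder Zfp36 fell from 13.13 to 12.57 and its relative Zfp36l1 rose from 9.63 to 11.14; the stem-loop binder Rc3h1 (roquin) fell from 12.19 to 11.05 and the decapping enzyme gene Dcp2 from 12.33 to 11.26. All 3 Tnrc6 genes, whose products act beside Argonaute in microRNA silencing, rose, with Tnrc6a going from 8.81 to 9.53, Tnrc6b from 6.05 to 7.23 and Tnrc6c from 8.45 to 9.54. RNA polymerase II and Mediator had 8 rises and 8 falls in 57, close to the share over all genes. Of these members 55 were at or above the median brightness, with 7 rises and 8 falls. Of all genes that bright, 24.05% rose and 22.12% fell, so this family changed less often. In it the elongation genes Cdk9 (from 10.26 to 10.86), Hexim1 (8.64 to 9.51) and Ell (6.61 to 8.10) rose with the largest subunit gene Polr2a (11.42 to 11.98), and Med13l (11.12 to 9.67) and Cdk12 (10.78 to 9.72) fell. RNA polymerases I and III had 7 rises and 8 falls in 34 (4 falls without saline replicate 1 and 5 without TMT replicate 1), the initiation factor gene Rrn3 falling from 9.32 to 8.55. Rrn3 did not pass without saline replicate 1 (adjusted p = 0.0505 in limma's test).

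Nucleotide synthesis was one of the families with most falls, 20 of 48 against 7 rises (median −0.24), and the rises numbered 3 to 4 without saline replicate 1 or 3 or TMT replicate 1. Rrm2, the small subunit of ribonucleotide reductase, read 8.92, 9.05 and 8.80 in saline and 5.65, 6.30 and 5.74 under TMT (8.16-fold; −3.03, SE 0.23, adjusted p = 5.3e-06). Adss, which makes the precursor of adenylate, read 9.94, 9.93 and 9.95 and 8.08, 7.93 and 8.11 (3.73-fold; −1.90, SE 0.10, adjusted p = 8e-07), and Ctps, which makes CTP, 8.70, 8.88 and 8.75 and 6.64, 6.85 and 7.30 (3.59-fold; −1.85, SE 0.18, adjusted p = 3.5e-05). In these genes the groups were far apart. The purine gene Pfas fell from 8.87 to 7.23, the pyrimidine gene Cad from 7.92 to 6.61, the dUTP hydrolase gene Dut from 7.75 to 5.58, and the salvage gene Hprt from 11.89 to 10.89. Upp1, a phosphorylase that breaks uridine down, rose from 9.10 to 10.67. Of 17 polyamine genes 6 fell and 4 rose, with Srm, spermidine synthase, going from 9.36 to 8.13 and Mtap, which recycles the by-product of that reaction, from 9.54 to 7.63.

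Lipid-handling genes leaned upward where they concern phospholipids and lipid droplets, with 17 of 47 risen and 4 fallen. Dgat2, which makes triglyceride, read 7.03, 7.29 and 7.41 in saline and 9.53, 9.40 and 9.75 under TMT (4.98-fold; 2.32, SE 0.15, adjusted p = 2.1e-06). Pla2g7, an acetylhydrolase of platelet-activating factor, rose from 10.42 to 11.47, Plaat3 from 11.51 to 12.37, Pld1 from 6.97 to 8.29, and Plin2, the main coat protein of macrophage lipid droplets, from 12.90 to 13.54. The 4 falls were large: Daglb, which makes 2-arachidonoylglycerol, went from 11.10 to 8.55, Plcb4 from 8.86 to 6.69, Pnpla7 from 10.32 to 8.61 and Lipa as given above. Sphingolipid genes were balanced, with 10 rises and 11 falls in 40, and the sphingosine kinases split, Sphk1 going from 7.94 to 5.77 and Sphk2 from 9.36 to 10.95. Fatty acid oxidation and peroxisomes had 11 rises and 8 falls in 48, with 6 rises without saline replicate 1 and 7 without TMT replicate 2 or 3. Phyh, of peroxisomal α-oxidation, rose from 10.60 to 11.99 and Cpt1a, the gate to mitochondrial oxidation, from 9.59 to 10.21, whereas Hadh fell from 11.61 to 10.13.

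Transporters changed in both directions. Of 25 ATP-binding cassette transporters 9 fell and 7 rose, and only 3 to 4 rose when any array other than TMT replicate 3 was left out. Abcb4 went from 9.85 to 7.61, the multidrug transporter gene Abcb1b from 11.004 to 8.97 and Abcc3 from 9.99 to 8.04, and Abcc5, an exporter of cyclic nucleotides, rose from 9.94 to 11.44. Of 71 other solute carriers 21 rose and 16 fell, with the sodium-proton exchanger gene Slc9a9 (from 9.97 to 7.52) and Slc37a2 (10.52 to 8.49) lower and the nucleoside transporter gene Slc29a3 (8.85 to 10.31), the GDP-fucose transporter gene Slc35c1 (7.81 to 9.28) and the phosphate transporter gene Slc20a1 (8.53 to 9.82) higher.

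Chromatin genes were counted by class. SWI/SNF and CHD remodellers, which move nucleosomes, had 12 falls and 0 rises in 31 (median −0.22), and 2 rose without TMT replicate 2. Chd9 read 11.12, 11.39 and 11.32 in saline and 9.79, 10.07 and 9.64 under TMT (2.72-fold; −1.44, SE 0.14, adjusted p = 3.1e-05), Smarca2 fell from 8.59 to 7.26, Chd1 from 10.62 to 9.64 and Arid1a from 10.94 to 10.36. Histone lysine demethylases had 7 rises and 3 falls (1 without TMT replicate 3) in 20. Kdm5b, which removes methyl groups from lysine 4 of histone H3, read 7.27, 7.43 and 7.004 and 9.85, 9.50 and 9.83 (5.60-fold; 2.49, SE 0.17, adjusted p = 2.6e-06), and Kdm3a, a demethylase of lysine 9, rose from 8.37 to 10.03, whereas Kdm4a fell from 9.74 to 8.74. Acetyltransferases and deacetylases had 10 rises and 4 falls (2 without saline replicate 1 or 2 or TMT replicate 2) in 29, with Ncoa1 (from 8.36 to 9.64), Hdac5 (7.59 to 8.62) and Kat2b (10.58 to 11.37) higher and Sirt1 (9.39 to 7.86) and Hdac2 (11.69 to 10.97) lower. Histone methyltransferases were mixed, 5 risen and 7 fallen of 27, with Setdb2 going from 11.72 to 9.98 and Smyd3 from 8.33 to 6.58. Polycomb, BCL6 and zinc finger repressors had 18 falls and 9 rises in 45: Ikzf1 (Ikaros) fell from 12.72 to 11.12, Zbtb20 from 8.83 to 7.19, Bcor from 10.41 to 9.10 and the polycomb gene Suz12 from 11.24 to 10.26, while its complex partner Eed rose from 10.67 to 11.70.

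Transcription factor families also split among their members. Of 21 MAF, BACH, BATF and C/EBP factors 9 fell and 5 rose (median −0.26). Bach1, a haem-regulated repressor, read 12.42, 12.67 and 12.65 in saline and 11.29, 11.48 and 10.99 under TMT (2.51-fold; −1.33, SE 0.13, adjusted p = 2.8e-05), and 2 of its small MAF partners fell with it, Maff from 11.46 to 10.37 and Mafk from 11.35 to 10.28. The third small MAF gene, Mafg, read 8.33, 8.02 and 7.98 and rose to 9.97, 9.82 and 10.13 (3.64-fold; 1.86, SE 0.15, adjusted p = 9.7e-06). Cebpb (from 12.96 to 13.36) and Cebpg (8.78 to 9.76) rose, unlike Cebpd. Among 19 ETS factors 7 rose and 6 fell: Ets1 rose from 5.72 to 7.81, Ets2 from 11.14 to 12.11 and Etv5 from 7.90 to 9.36, and Etv6 fell from 11.20 to 10.06, Elf1 from 10.22 to 9.10 and Etv3 as above. Nuclear receptors had 6 rises and 1 fall in 22. The fall was Nr4a3, and its relative Nr4a1 rose from 6.26 to 7.07; Nr2f6 rose from 8.02 to 9.76, Nr2c2 from 8.82 to 10.01 and the clock receptor Nr1d2 from 8.09 to 8.96. Of 19 clock genes 7 rose and 1 fell (median 0.22). Per1 read 5.68, 5.27 and 5.31 in saline and 7.84, 7.24 and 7.82 under TMT (4.64-fold; 2.21, SE 0.26, adjusted p = 0.0001), Dbp rose from 6.97 to 8.10 and Bhlhe40 from 8.33 to 9.30, while Clock itself fell from 9.62 to 8.99 and did not pass when its probe sets were averaged (adjusted p = 0.25 in limma's test). Of 10 STAT and JAK genes 3 fell, Stat4 (from 7.04 to 6.37) beside Stat5a and Stat5b, and 2 rose, Stat2 (11.57 to 11.99) and Jak3 (7.78 to 8.22). Neither rise passed without TMT replicate 1 or 3 or any 1 saline array, and Stat4 did not pass without saline replicate 2 or TMT replicate 2 or 3. When 1 array was left out the adjusted p in limma's test reached 0.14 for Jak3, 0.16 for Stat2 and 0.069 for Stat4.

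In kinase and phosphatase signalling, protein tyrosine phosphatases had 8 falls and 1 rise in 22 (median −0.18). Ptprs read 9.92, 9.97 and 10.02 in saline and 7.70, 7.98 and 8.04 under TMT (4.18-fold; −2.07, SE 0.10, adjusted p = 4.2e-07), Ptpn22 fell from 8.91 to 6.89 and Ptpn2 from 11.85 to 11.16. The single rise was Ptpn6 (SHP-1, from 11.32 to 12.28), the phosphatase recruited by inhibitory receptors. MAP kinase cascade kinases had 9 falls and 7 rises in 33. Map3k5 (ASK1) fell from 12.19 to 10.33, Map3k8 (TPL2), which LPS uses to reach ERK, from 11.62 to 10.23, and Mapkapk2 from 10.22 to 8.79, whereas Mapk7 rose from 7.16 to 8.72 and Map3k4 from 7.60 to 9.30. Of 14 kinases of the SRC, SYK and TEC type 3 fell, including Fyn (from 11.01 to 10.18) and Src (10.24 to 9.59), and 2 rose, including Abl1 (7.98 to 9.59), with 1 rise when any array other than TMT replicate 2 was left out. Phosphoinositide enzymes had 13 rises and 9 falls in 43, the falls numbering 4 to 5 without saline replicate 2 or 3 or TMT replicate 3: Inpp5d (SHIP1) rose from 7.63 to 9.59 and Pik3cg, the kinase downstream of G-protein-coupled receptors, from 8.66 to 10.74, and Pikfyve, the endosomal lipid kinase, fell from 11.95 to 9.93.

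Second messengers and G-protein regulators followed. Calcium channels and calcium-regulated enzymes had 13 falls and 6 rises in 41 (median −0.16), with Camkk2 going from 11.91 to 10.80, Rcan1, an inhibitor of calcineurin, from 11.28 to 10.19 and the calcium pump gene Atp2b1 from 12.65 to 11.63. The store-operated channel gene Orai1 rose from 7.50 to 9.05 and Camk2g from 5.96 to 8.35. Cyclic nucleotide enzymes had 11 rises and 8 falls (5 without TMT replicate 1) in 31, and their median was −0.10. The phosphodiesterase genes moved both ways, Pde7b from 5.32 to 8.25 and Pde3b from 8.82 to 7.30. Regulators of G-protein signalling had 7 rises and 6 falls in 24: Rgs1, Rgs2 and Rgs10 fell from 12.58 to 11.05, 11.52 to 9.67 and 12.20 to 10.42, and Rgs19, Grk6 and Arrb2 rose from 11.05 to 12.29, 8.58 to 9.92 and 10.93 to 12.16.

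Among ligand-driven pathways, TGF-β, activin and BMP signalling had 14 rises and 6 falls in 42. The inhibitory SMAD genes Smad7 (from 6.51 to 7.88) and Smad6 (5.14 to 6.84) rose, as did Smad1 (9.84 to 11.27) and the receptor gene Acvrl1 (8.82 to 10.24), and the ligand gene Bmp2 (5.80 to 4.48) and the receptor gene Acvr1 (9.35 to 8.05) fell. The WNT pathway had 11 falls (7 without saline replicate 3) and 2 rises (1 when any single array was left out) in 35 (median −0.081), with the receptor gene Fzd5 at 10.26, 10.18 and 10.20 in saline and 8.04, 7.84 and 7.61 under TMT (5.21-fold; −2.38, SE 0.12, adjusted p = 5.4e-07), the corepressor gene Tle1 falling from 8.49 to 6.38 and Tcf4 from 12.70 to 11.74. The Notch pathway had 5 rises and 5 falls in 24: the ligand genes split, Dll1 falling from 8.36 to 6.72 and Jag1 rising from 10.94 to 11.76, and Notch1 fell from 11.69 to 10.72. Of 26 growth factor genes 8 fell and 0 rose (median −0.15), among them Igf1, which fell from 12.95 ± 0.061 to 11.89 ± 0.26, and Gas6, counted also with the clearance receptors.

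In the ubiquitin system, adaptors of cullin ligases with BTB, kelch or KCTD domains had 14 rises and 3 falls in 41 (median 0.18), with 9 rises without saline replicate 1 or without saline replicate 3. Kbtbd7 read 7.03, 7.41 and 6.84 in saline and 9.03, 9.44 and 8.90 under TMT (4.10-fold; 2.03, SE 0.18, adjusted p = 1.4e-05), and Klhl24 8.59, 8.67 and 8.35 and 10.31, 10.12 and 10.15 (3.15-fold; 1.66, SE 0.11, adjusted p = 3.2e-06). Deubiquitinases had 15 falls and 8 rises in 58, the rises numbering 4 to 5 without saline replicate 1 or 3 or TMT replicate 1, with Usp12 going from 10.82 to 9.42, Otud1 from 11.55 to 10.36 and the NF-κB inhibitor Tnfaip3 (A20) from 13.44 to 12.60. TRIM ligases had 8 rises and 7 falls in 38, with 3 to 5 rises when any array other than TMT replicate 2 was left out, Trim65 rising from 6.14 to 9.17 and Trim37 falling from 9.37 to 8.06. The other signalling ligases had 13 rises and 14 falls in 51. Marchf1, which removes class II antigen-presenting molecules from the surface, rose from 9.51 to 11.81 and Cbl from 9.49 to 10.60, and Wwp1 (11.71 to 9.46), Spsb1 (11.34 to 9.11) and Peli1 (13.06 to 12.16) fell.

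Coagulation and fibrinolysis genes had 10 falls and 7 rises in 27. F3, encoding tissue factor, the starter of clotting, read 8.71, 8.67 and 8.71 in saline and 6.38, 6.24 and 5.51 under TMT (6.28-fold; −2.65, SE 0.19, adjusted p = 3.7e-06). The thrombin receptor gene F2r fell from 8.63 to 5.90 and the urokinase receptor gene Plaur from 11.40 to 10.13, while the coagulation factor gene F10 rose from 10.52 to 11.33 and the protease inhibitor gene Serpinb2 from 8.88 to 10.02. Procr and Thbs1, described above, are among the rises. Of 15 annexin and S100 genes 7 fell (4 without saline replicate 1 or 3 or TMT replicate 1 or 2) and 1 rose (2 without TMT replicate 3): S100a9 fell as given with the neutrophil markers, S100a4 fell from 13.63 to 13.06 and Anxa7 from 12.65 to 11.96. The rise, Anxa6 (from 10.72 to 11.66), did not pass when the gene's probe sets were averaged (adjusted p = 0.18 in limma's test).

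A gene's probe sets can read different ends or forms of its transcripts. Of 3078 called genes with several probe sets, 1902 had at least 1 other probe set passing in the same direction and 65 had one passing in the opposite direction. In 42 genes, probe sets at or above the median brightness passed in opposite directions. Lrp1, a large endocytic receptor, read 12.11, 11.96 and 12.11 in saline and 11.09, 10.91 and 11.29 under TMT with its brightest probe set. Its other probe set read 6.44, 6.36 and 5.76 in saline and 9.97, 10.26 and 10.03 under TMT, a difference of 3.90 (SE 0.21) against −0.96 (SE 0.11) for the first. Both pairs of groups were fully separate, so no single direction can be given for Lrp1. In Cp 7 of 8 probe sets rose, by 1.02 to 2.54, and 1 fell (−0.77). In Cux1 5 probe sets fell and 2 rose, in Epb41l2 3 fell and 1 rose, and in Camk1d 2 fell and 1 rose. Flt1, Septin8 and Atxn7l1 had probe sets passing both ways as well, and averaging over probe sets turned the sign of Lrp1, Septin8 and Atxn7l1.

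**Figure D5:**
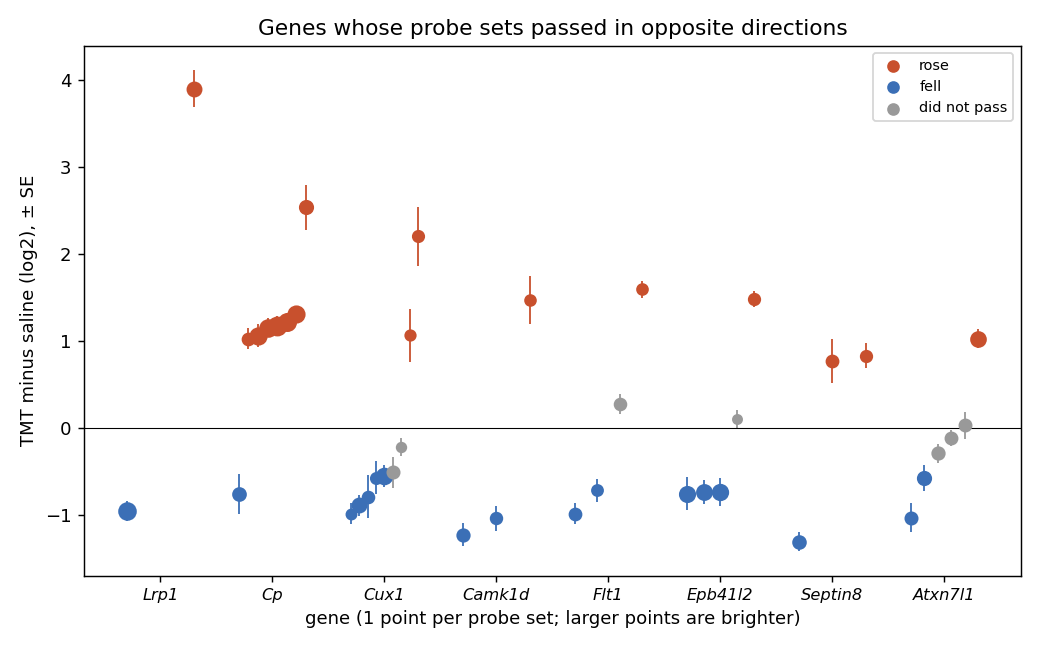
Difference between TMT and saline (log2, vertical axis) with its SE for each probe set of 8 genes whose bright probe sets passed in opposite directions; red points rose, blue points fell and grey points did not pass, and larger points are brighter. The probe sets of Lrp1 lie at −0.96 and 3.90, and of the 7 risen probe sets of Cp, at 1.02 to 2.54, 1 stands above the others.

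Some very bright genes differed little between the groups. In 131 of the brightest 5% the 95% interval of the difference lay within 1.2-fold either way. C1qb, Rpl41, Ehd1 and Dync1h1, given next, were picked from these for the smallest differences. The highest deposited value was 14.8, and whether signals flatten near it was not tested. The complement gene C1qb read 13.96 ± 0.018 in saline and 13.96 ± 0.025 under TMT (difference 0.00038, interval −0.17 to 0.17), the ribosomal protein gene Rpl41 14.61 and 14.61, and the endocytic gene Ehd1 13.88 and 13.88. The dynein heavy chain gene Dync1h1 was at 12.36 and 12.36, with an interval of −0.21 to 0.20. These values are of its brightest probe set, and Dync1h1 passed when its probe sets were averaged (adjusted p = 0.044 in limma's test). Nlrp3, the sensor of the inflammasome, changed by −0.39 (SE 0.099, adjusted p = 0.013 in limma's test, 0.052 without TMT replicate 3), and Il1b, the precursor of interleukin-1β, by −0.20 (interval −0.51 to 0.11, adjusted p = 0.37 in limma's test). At the threshold itself, the last genes inside were S1pr3 (−0.96) and Nrcam (−0.48), with an adjusted p of 0.0499 each, and the first outside were Pigq (0.40) and 5031439G07Rik (0.33), with 0.0501 each.

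The levels under TET, given at 10 µM against the 1.25 µM of TMT and set against the same saline arrays, are stated for the leading genes without comparison. Adamts4 stood at 11.11 ± 0.030 under TET, Hpgd at 9.16 ± 0.14, Errfi1 at 10.33 ± 0.50 and Rnd1 at 8.18 ± 0.43. These genes were at 12.29, 11.51, 12.45 and 11.34 in saline and at 8.05, 7.34, 9.25 and 6.27 under TMT. Irf2bp2 stood at 9.17 ± 0.41 under TET, Hp at 7.82 ± 0.32, Egln3 at 6.86 ± 0.74 and Siglece at 6.84 ± 0.18, with 7.13, 6.85, 6.99 and 7.15 in saline and 11.60, 11.15, 10.45 and 10.23 under TMT. Because dose and compound differ together, these values cannot be assigned to either.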

How the data were processed

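Total RNA was read on Affymetrix mouse genome arrays after amplification with the Nugen WT-Ovation Pico system, per the labels' protocols. The deposited values are log2 signals per probe set from RMA with the affy package, per the submitters' processing notes. The sources used here give no versions and do not say whether all 9 arrays were processed together. The log base was inferred from the range of values (2.05 to 14.8), which were used as deposited.

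Of 45037 probe sets, 34945 named 1 gene in the platform annotation, 932 named several and 9160 none. The 18193 genes with a single-gene probe set were each represented by the brightest over the 9 arrays. For 3953 of these genes it is of a type that may bind related transcripts, among the named genes Lcn2, Foxo3, Hilpda, Lmna, Asap1, Cxcl1, Procr, Il1rn, Lhfpl2, Gpr35, Trib3, Lipa, Stat5a and Stat5b.

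Group means were fitted to the 9 arrays with limma 3.58.1 in R 4.3.3 (6 residual degrees of freedom, prior 3.99, no trend), two-sided, and tested on simulated data. Precision is limited by the number of arrays, and the median SE of a difference was 0.121. The TET arrays enter every SE, and they spread more. The median SD within a group was 0.171 for TET, 0.091 for saline and 0.118 for TMT. With the 6 saline and TMT arrays alone the median SE was 0.095.

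Genes named for their size of change met an adjusted p under 0.05 with groups that did not overlap. They were the 20 largest changes in each direction among genes bright in both groups, up to 10 among genes changing between bright and dim, and 12 among the brightest 5%. Up to 4 per family were the called members with the smallest adjusted p, and separate groups were not required. Genes with opposite probe sets, very bright genes with the smallest differences, genes closest to the threshold, Nlrp3 and Il1b were named whether or not they passed. Other family members were named after their values were seen. The families, the members and the naming rule were chosen with earlier results of these data known. Alternatives left out each array in turn and changed scaling, probe set choice, variance model, pairing and the fold tested. Promoter windows came from RefSeq tables on GRCm38.p6. The results of 1 gene group are not reported here.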

Additional observations from a re-analysis of the deposited data

How the results depend on the processing

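Leaving out 1 array at a time gave 3971 to 4668 changed genes, with 2021 to 2379 rises and 1937 to 2289 falls. Array weights gave 8756 (4561 rises, 4195 falls), with a weight of 8.13 for TMT replicate 1 and 0.396 for TMT replicate 2. Testing each probe set separately gave 9048 (4312 rises, 4736 falls), over more rows, and testing against a 1.2-fold change gave 2760 (1393 rises, 1367 falls), by its stricter null. The cause of the change under array weights was not tested. The other alternatives, which were genes at or above the median brightness alone, 3 scalings, the mean over probe sets, no probe sets that may bind related transcripts, trended robust moderation and the 6 arrays alone, gave 4331 to 6075. Centring each array on its median gave 2440 rises and 2574 falls and moved the median of all genes from 0.012 to −0.014. With the replicate number as a block 4859 genes passed. Replicates of the same number deviated with correlations of 0.16, 0.31 and 0.020, no label pairs them, and not every array correlated best with its own number, so the pairing was not used. Of 334 genes named above that passed, 313 kept their call under all 14 alternatives that were followed gene by gene. The 1.2-fold test and testing each probe set separately were not among these. Nor were genes at or above the median brightness alone and no probe sets that may bind related transcripts. The mean over probe sets turned Lrp1 to 1.47, Septin8 to 0.093 and Atxn7l1 to −0.16. Of the named genes that did not pass, Csf1r, Dync1h1, Pigq and 5031439G07Rik passed with the mean over probe sets. Flt1, Kdr and Pdgfrb passed with array weights. Jak3, Stat2, Stat4, S1pr3, Nrcam, Nlrp3, Cd14, Eef2, Eif3a, Fcgr3, Mpo, Rrn3, Timd4 and Xpo7 lost their call without single arrays, and Anxa6, Clock, Cux1 and Epb41l2 with the mean over probe sets. The family medians of the ATP-binding cassette transporters (cyclic loess), the C-type lectins and the SRC, SYK and TEC kinases (centring) changed sign with scaling, as did, when 1 array was left out, those of the MAP kinase cascade, G-protein regulators, coagulation, annexins and S100 proteins, RNA polymerases I and III and other solute carriers. No array value marks the background, so levels near the low end have no known distance from it.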
